A study of Homo sapiens with 12 samples.

Results

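The 10 genes described here encode granins and neuropeptides, the cargo of dense-core secretory vesicles. They were chosen by name: the granin-family genes VGF, SCG2, SCG3, SCG5, CHGA and CHGB, and the neuropeptide genes CRH, NPY, GAL and VIP. The choice was made with earlier results of these data known. All 10 are rows of a table of 55771 genes. Their RNA was measured in KELLY cells, an established human neuroblastoma line with an amplified MYCN gene, in 12 RNA-seq libraries in 3 groups of 4. Every group received a morpholino, an uncharged antisense oligonucleotide, annealed to a DNA leash and delivered with lipid at 50 nM for 48 h, in medium with 4% serum after 24 h in 10% serum. The groups differed in the oligonucleotide, which was a control oligonucleotide, BPS1 or BPS2, and the control cells were thus transfected too. The series text asks which transcripts change when the long form of the NEAT1 RNA, NEAT1_2, and the nuclear bodies built on it, paraspeckles, are increased. Columns of the BPS2 libraries carry a different name, KPAS, in the description field and were matched through the sample titles. The cells are 1 line, and no label says that replicate libraries were grown as separate cultures, so the p-values rest on library-to-library spread that may be technical only.

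Granins are acidic proteins that aggregate with calcium in the trans-Golgi network and help to form the dense core of secretory vesicles, where hormones and neuropeptides are packed and cut into active peptides. Chromaffin cells and sympathetic neurons, the lineage from which neuroblastoma arises, store catecholamines in such vesicles, and chromogranin A in blood is used as a marker of neuroendocrine tumours. Neuropeptides are cut from larger precursors by prohormone convertases and carboxypeptidase E and are released by calcium-triggered fusion. Several of the precursor genes are classical targets of cyclic AMP signalling through the factor CREB.

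Values are the authors' normalized counts, in which the total of a library was 29.6 to 33.3 M. Fold changes are log2 differences of (value + 1) from a limma fit over all 12 libraries, with the standard error of the fit. A gene was called when its two-sided p, adjusted by Benjamini-Hochberg over the 20454 genes tested, was under 0.05. All 10 genes passed the filter on low values, at least 10 in at least 4 libraries. The row of NEAT1 averaged 6879 in control, 2024 with BPS1 and 4262 with BPS2, and it does not separate the long from the short form. NEAT1 fell with BPS1 (limma adjusted p = 6e-06) and with BPS2 (limma adjusted p = 0.0239), a call that held in 5 of 12 fits that each left out 1 library. Control replicate 1 and BPS1 replicate 4 stood apart in the log2 deviation of a library's genes from each gene's median over all 12 libraries. The SD of this deviation, which includes differences between groups, was 0.471 and 0.594, against 0.377 to 0.425 in the other 10. In these 2 libraries that deviation also rose with the GC content of a transcript (Spearman's rho over 14655 protein-coding genes of 0.266 and 0.38). In the rest rho lay between −0.235 and 0.221. Mitochondrially encoded RNA was 7.07% to 7.99% of all values in control, 6.46% to 6.83% with BPS1 and 7.10% to 7.38% with BPS2. All 9 of 9 sympathetic neuroblast markers had a mean of at least 50, and their summed level was 150160 to 169840 in control, 125028 to 153449 with BPS1 and 144267 to 153494 with BPS2. Of 9 markers of mesenchymal neuroblastoma cells, 6 had such a mean, and their sums were 6412 to 7656, 6955 to 8414 and 6447 to 7382. Leukocyte markers summed to at most 44.2 and Schwann markers to at most 114, with SOX10 between 0 and 1.49. The part of these differences in the results was not tested. In bulk RNA, fewer cells of a type and less RNA per cell cannot be told apart.

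CHGA was by far the most abundant of the genes. Levels can be compared between genes only per length, so each normalized count was divided by the length of the gene's longest protein-coding transcript in GENCODE release 29. On this scale, normalized counts per kb, the control means ran from CHGA at 54711 through CHGB at 3045, GAL at 2503, SCG3 at 1562, SCG5 at 831, SCG2 at 411, NPY at 153, VGF at 75.7 and VIP at 31.0 to CRH at 14.2. Neighbours in this order did not overlap between their 4 libraries, with the exception of CHGB and GAL. Ranked per kb among 20273 genes, CHGA was at place 25 and CRH at place 16116 in control. The order was not the same in the treated libraries. GAL stood above CHGB with BPS1, 3143 against 2615 per kb with overlapping libraries, and with BPS2, 3196 against 2545 with no overlap. With BPS1, SCG2 averaged 871 per kb and SCG5 648, and their libraries overlapped, while with BPS2 SCG2 at 818 lay above SCG5 at 723 with no overlap. With BPS2, CRH at 67.8 per kb stood above VIP at 49.3, and the libraries of this pair overlapped.

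**Figure D1:**
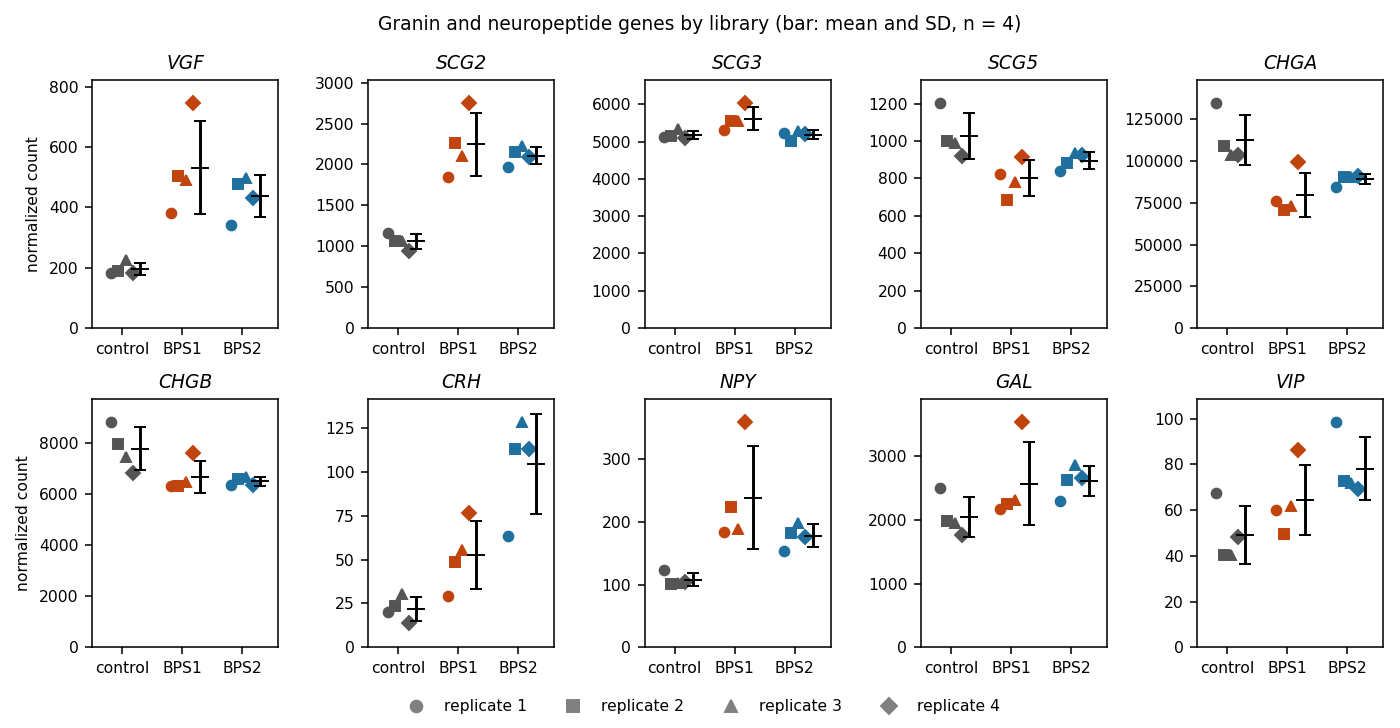
Normalized counts (vertical axes, each starting at 0) of the 6 granin and 4 neuropeptide genes in each library of the control, BPS1 and BPS2 groups. Symbols mark replicate numbers and bars the mean and SD (n = 4). In VGF and SCG2 every treated library lies above every control library, and in CHGA every treated library lies below.

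With BPS1, 6 of the 10 genes were called, 4 higher (VGF, SCG2, CRH and NPY) and 2 lower (CHGA and SCG5). Of all genes tested, 8.60% were called in this comparison, 4.29% higher and 4.32% lower. The median log2 fold change of the 10 genes was 0.35, beside −0.00036 over all genes tested. With BPS2, 3 of the 10 were called, VGF, SCG2 and CRH, each of them higher, against 1.21% of all genes tested, 0.821% higher and 0.386% lower. The median of the 10 was 0.52, beside 0.0025 over all genes. Limma called 0 members lower with BPS2, and at an unadjusted p under 0.05, in either direction, there were 7 of the 10 with BPS1, beside 22.5% of all genes tested, and 8 with BPS2, beside 11.4%. Libraries of the 2 groups did not overlap for 5 members with BPS1, 3 higher (VGF, SCG2 and NPY) and 2 lower (CHGA and SCG5), as they did not for 14.3% of all genes tested, 7.50% higher and 6.81% lower. With BPS2 they did not overlap for 7 members, 5 higher (VGF, SCG2, CRH, NPY and VIP) and 2 lower (CHGA and CHGB), against 9.65% of all genes, 5.41% higher and 4.23% lower. Both comparisons use the same 4 control libraries, so they are not independent of each other. Because the 10 genes were chosen with earlier results of these data known, their shares beside those of all genes are descriptions only.

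VGF encodes a neurotrophin-inducible precursor that is cut into peptides acting in energy balance and neuronal plasticity. The gene (ENSG00000128564) spans 101162509 to 101165593 on the minus strand of chromosome 7 (GRCh38, GENCODE release 29). Its normalized counts were 183, 189, 225 and 183 in control replicates 1 to 4, 382, 505, 492 and 747 with BPS1, and 342, 479, 496 and 431 with BPS2. Every treated library was above every control library, and BPS1 replicate 4 was the highest of the 12. The means were 195 ± 20.3, 531 ± 154 and 437 ± 68.9 (SD, n = 4). VGF rose 2.73-fold with BPS1 (log2 fold change 1.41 ± 0.18, limma adjusted p = 0.000438). It rose 2.24-fold with BPS2 (1.15 ± 0.18, limma adjusted p = 0.00706).

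SCG2 encodes secretogranin II, the precursor of the peptide secretoneurin. The gene (ENSG00000171951) lies on the minus strand of chromosome 2, 223596940 to 223602503. Its values were 1162, 1069, 1059.7 and 942 in control, 1850.0, 2266, 2107 and 2755 with BPS1, and 1971, 2154, 2220.2 and 2087 with BPS2. The lowest treated library exceeded the highest control library by a wide margin, and the BPS2 libraries lay close together. The means were 1058 ± 90.0, 2245 ± 381 and 2108 ± 107. SCG2 rose 2.12-fold with BPS1 (log2 fold change 1.07 ± 0.11, limma adjusted p = 7.96e-05) and 1.99-fold with BPS2 (1.00 ± 0.11, limma adjusted p = 0.000955). Per kb its rank among 20273 genes was 4851 in control, 2465 with BPS1 and 2647 with BPS2.

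CHGA encodes chromogranin A, the archetypal granin and the precursor of peptides such as catestatin and pancreastatin. The deposited identifier (ENSG00000276781) is not in release 29 and was matched by symbol to ENSG00000100604, on the plus strand of chromosome 14, 92923080 to 92935293. Normalized counts were 134935, 109217, 103719.9 and 103600.1 in control, 76359, 70566, 73213 and 99424 with BPS1, and 84556, 90361, 90402 and 90885 with BPS2. No treated library reached the lowest control library. Control replicate 1 and BPS1 replicate 4, the libraries that stood apart, were each the highest of their group. With means of 112868 ± 14943 in control and 79890.3 ± 13236 with BPS1, CHGA fell to 70.8% of control (log2 fold change −0.50 ± 0.11, limma adjusted p = 0.0112). The size depended on the scaling: after quantile scaling the log2 fold change was −0.28 with BPS1 (limma adjusted p = 0.0316) and −0.13 with BPS2 (limma adjusted p = 0.523). The mean with BPS2 was 89051 ± 3006, and the log2 difference of −0.33 ± 0.11 did not pass (limma adjusted p = 0.205), although the groups did not overlap. It passed without BPS1 replicate 4 (limma adjusted p = 0.0308), with library weights (0.0138) and with the GC trend removed (0.00536).

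SCG5 encodes 7B2, the chaperone and inhibitor of prohormone convertase 2. The gene (ENSG00000166922) lies on the plus strand of chromosome 15, 32641676 to 32697098. It had values of 1205, 999.95, 992 and 919 in control, 824, 687, 782 and 917 with BPS1, and 838, 880.2, 938 and 926 with BPS2. The highest BPS1 library lay just under the lowest control library, while BPS2 overlapped with control. SCG5 fell with BPS1 from 1029 ± 123 to 803 ± 95.3 (log2 fold change −0.36 ± 0.10), at the edge of the threshold (limma adjusted p = 0.0499). This call held in 2 of the 12 fits that each left out 1 library, those without control replicate 4 and without BPS1 replicate 4, and without BPS1 replicate 2 the limma adjusted p was 0.133. With BPS2 the mean was 896 ± 45.9 and the log2 difference −0.19 ± 0.10 (limma adjusted p = 0.519), or −0.12 without control replicate 1.

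CHGB encodes chromogranin B, a granin that promotes vesicle formation and is cut at many sites. The gene (ENSG00000089199) lies on the plus strand of chromosome 20, 5911430 to 5925361. Its values were 8818, 7959, 7442 and 6836 in control, 6293, 6292, 6472 and 7620.0 with BPS1, and 6362, 6594, 6664 and 6337 with BPS2. All BPS2 libraries and 3 of 4 BPS1 libraries were under the lowest control library, and BPS1 replicate 4 was within the control range. Neither difference was called, with log2 differences of −0.22 ± 0.08 for BPS1 (limma adjusted p = 0.14) and −0.25 ± 0.08 for BPS2 (limma adjusted p = 0.23). Without BPS1 replicate 4, the difference for BPS1 was −0.28 and was called (limma adjusted p = 0.0263).

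SCG3 encodes secretogranin III, which binds chromogranin A and cholesterol-rich membrane and sorts cargo into vesicles. The gene (ENSG00000104112) lies on the plus strand of chromosome 15, 51681353 to 51721031. Its values of 5135, 5140.4, 5337 and 5103 in control overlapped with 5298, 5550.4, 5554 and 6041 in BPS1 and with 5237, 5029, 5293 and 5192 in BPS2. Relative to its mean it had the smallest spread of the granins in control, 5179 ± 107. The log2 difference was 0.11 ± 0.06 with BPS1 (limma adjusted p = 0.257) and 0.0025 with BPS2, with a 95% interval of −0.12 to 0.12 (limma adjusted p = 0.994). SCG3 and SCG5 overlap antisense genes whose own rows averaged at most 3.60.

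Promoter sequence is shown for 3 members because VGF and CHGA, which moved in opposite directions with BPS1, hold the same 8-base element near the start, and VIP holds its 5-base core at a like distance. Each stretch runs from base −150 to base −1 before the start in RefSeq (GRCh38.p14), 5′ to 3′ on the gene's strand. Capitals mark TGACG on either strand (CGTCA), and where the strands' matches overlap they form TGACGTCA, the cyclic AMP response element bound by CREB. The stretches are chr7:101165570-101165719 on the minus strand for VGF, chr14:92923000-92923149 on the plus strand for CHGA and chr6:152750647-152750796 on the plus strand for VIP.
VGF: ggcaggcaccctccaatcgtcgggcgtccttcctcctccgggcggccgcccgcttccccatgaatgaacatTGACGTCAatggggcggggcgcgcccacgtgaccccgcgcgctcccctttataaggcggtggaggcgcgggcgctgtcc
CHGA: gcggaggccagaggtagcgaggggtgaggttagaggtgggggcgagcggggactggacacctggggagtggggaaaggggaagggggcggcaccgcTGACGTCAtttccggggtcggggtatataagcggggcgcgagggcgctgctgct
VIP: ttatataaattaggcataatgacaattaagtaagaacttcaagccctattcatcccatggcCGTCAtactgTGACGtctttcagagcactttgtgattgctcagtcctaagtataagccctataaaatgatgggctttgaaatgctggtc

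Windows of 300 bases, 250 before and 50 after the start, were given for 6 of the 10 members, namely VGF, CHGA, SCG3, SCG5, NPY and VIP. TGACGTCA was in 2 of them, VGF at −79 to −72 and CHGA at −54 to −47, and in 1.85% of 35116 RefSeq promoter windows of this length. TGACG, which every TGACGTCA contains, was in 5 of the 6 windows, all but NPY, and in 24.6% of all windows. The AP-1 element TGANTCA was in 0 of the 6 and in 7.71% of all windows. The E-box CACGTG was in VGF alone of the 6, at −54 to −49, and in 7.26% of all windows. TATAAA was in VGF and VIP and in 11.5% of all windows. Both strands were searched, and a match describes letters, not binding.

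Among the neuropeptides, CRH had the largest fold change. CRH encodes corticotropin-releasing hormone, the hypothalamic peptide that drives the pituitary stress axis. It is the only member whose row could be read as whole reads in every library, within 0.005 of a read: 20, 24, 31 and 13 reads in control, 31, 52, 57 and 70 with BPS1, and 64, 115, 124 and 111 with BPS2. The 95% exact Poisson interval of the lowest control library, 13 reads, was 6.92 to 22.2, and that of the highest BPS2 library, 124 reads, was 103 to 148. These intervals cover counting error only. As normalized counts the values were 20.3, 23.6, 30.3 and 13.6 in control, 29.3, 48.9, 55.5 and 76.5 with BPS1, and 63.4, 113, 129 and 113 with BPS2. BPS2 stood clear of control, and BPS1 replicate 1 fell within the control range.

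The CRH means were 22.0 ± 6.95, 52.5 ± 19.4 and 105 ± 28.4. CRH rose 4.76-fold with BPS2 (log2 fold change 2.21 ± 0.31, limma adjusted p = 0.00396). It rose 2.39-fold with BPS1 (1.20 ± 0.31, limma adjusted p = 0.0326), and this call held in 6 of the 12 fits without 1 library. It was lost without control replicate 1, 2 or 4 or without BPS1 replicate 2, 3 or 4, with a limma adjusted p of up to 0.0876. The gene (ENSG00000147571) lies on the minus strand of chromosome 8, 66176382 to 66178725, and has 1 annotated transcript.

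NPY encodes neuropeptide Y, the sympathetic co-transmitter that constricts vessels and, in the brain, stimulates feeding. The gene (ENSG00000122585) lies on the plus strand of chromosome 7, 24284163 to 24291865. Its values were 123, 101, 103 and 104 in control, 183, 224, 189 and 359.9 with BPS1, and 154, 182, 199 and 176 with BPS2. All 8 treated libraries were above all 4 control libraries, and BPS1 replicate 4 was far above the rest of its group. From 108 ± 10.2 in control, NPY rose 2.22-fold with BPS1, to 239 ± 82.5 (log2 fold change 1.09 ± 0.19, limma adjusted p = 0.00294). With BPS2 the mean was 178 ± 18.5 and the log2 difference of 0.72 ± 0.19 did not pass (limma adjusted p = 0.099). It passed without BPS1 replicate 4, which enters the estimate of the spread (limma adjusted p = 0.0055).

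GAL encodes galanin, a peptide that inhibits transmitter release and supports neuron survival. The gene (ENSG00000069482) lies on the plus strand of chromosome 11, 68683779 to 68691175. Its values were 2501, 1982, 1949 and 1758 in control, 2168, 2254, 2320.0 and 3541 with BPS1, and 2304, 2627, 2869.8 and 2657 with BPS2. Control replicate 1 lay among the treated libraries, so both comparisons overlapped. The log2 difference was 0.31 ± 0.15 with BPS1 (95% interval −0.02 to 0.64, limma adjusted p = 0.25) and 0.36 ± 0.15 with BPS2 (limma adjusted p = 0.374). Without BPS1 replicate 4 the BPS1 value of GAL was 0.15, and without control replicate 1 it was 0.41.

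VIP encodes vasoactive intestinal peptide, a relaxant of smooth muscle that raises cyclic AMP in its target cells. The gene (ENSG00000146469) lies on the plus strand of chromosome 6, 152750798 to 152759765. Its values were 67.6, 40.3, 40.3 and 48.3 in control, 60.2, 49.5, 61.7 and 86.2 with BPS1, and 98.6, 72.9, 71.8 and 69.2 with BPS2. The BPS2 libraries were all above control, with control replicate 1 close under the lowest of them. BPS1 overlapped with control. The log2 difference with BPS2 was 0.68 ± 0.21 (limma adjusted p = 0.187) and with BPS1 0.39 ± 0.21 (limma adjusted p = 0.303), or 0.24 without BPS1 replicate 4.

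**Figure D2:**
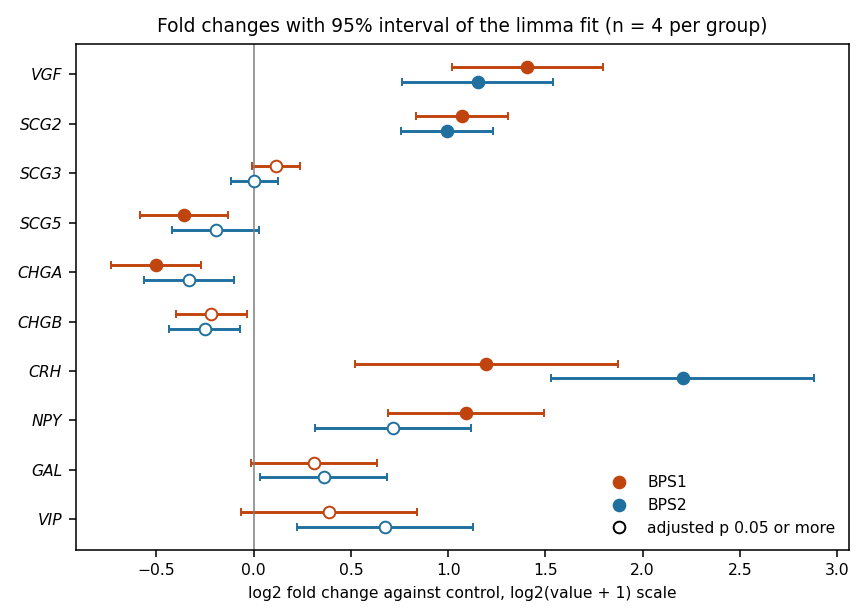
Log2 fold change against control (horizontal axis, log2(value + 1) scale) of each gene with BPS1 and BPS2. Bars are the 95% interval of the limma fit (n = 4 per group), and filled points have an adjusted p under 0.05. VGF, SCG2 and CRH are filled on the higher side for both oligonucleotides, and CHGA and SCG5 on the lower side for BPS1.

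The make-up of the group of transcripts differed between groups, with a smaller part taken by its most abundant member after both oligonucleotides. Of the 10 genes' summed normalized counts per kb, CHGA made up 86.3% ± 0.583 in control, 80.1% ± 0.814 with BPS1 and 82.1% ± 0.427 with BPS2 (SD, n = 4). GAL went from 3.94% in control to 6.45% with BPS1 and 6.07% with BPS2, and SCG2 from 0.652% to 1.81% and 1.56%. A smaller share of CHGA leaves a larger share to the others together. CHGB, whose mean did not rise, went from 4.82% to 5.45% and 4.85%, and SCG3 from 2.50% to 3.55% and 2.98%. The level of GAL was called in neither comparison. The 10 genes together held 0.417% ± 0.0403 of all normalized counts in control, 0.321% ± 0.0310 with BPS1 and 0.346% ± 0.00961 with BPS2. These shares are descriptions, with no test.

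Set against each other, the 2 oligonucleotides gave no call among the 10 genes in limma, where 3.93% of all genes tested were called (2.30% higher and 1.63% lower with BPS2), and 1 member, CRH, had an unadjusted p under 0.05, as 17.1% of all genes tested did, a larger share than among the 10. The CRH means of 52.5 with BPS1 and 105 with BPS2 differed by 1.01 ± 0.31 on the log2 scale (95% interval 0.33 to 1.69, limma adjusted p = 0.102), and BPS1 replicate 4 overlapped with the lowest BPS2 library. Without BPS1 replicate 4 the CRH difference was 1.21 and was called (limma adjusted p = 0.0328), and so was that of CHGA, 0.28 (limma adjusted p = 0.0478). With all libraries, CHGA was 0.17 higher with BPS2 than with BPS1 (limma adjusted p = 0.468). For VGF the difference was −0.25 (limma adjusted p = 0.532), for SCG2 −0.08 (limma adjusted p = 0.804) and for NPY −0.37 (limma adjusted p = 0.331). SCG3 was lower in every BPS2 library than in any BPS1 library, with a log2 difference of −0.11 that did not pass (limma adjusted p = 0.341). It was the 1 member whose BPS1 and BPS2 libraries did not overlap, against 11.9% of all genes tested, 6.08% higher and 5.80% lower with BPS2.

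The libraries that stood apart bear on most members. BPS1 replicate 4 was the highest of its group in 10 of 10 genes, as it was in 40.4% of all genes tested, and control replicate 1 the highest of its group in 7 of 10, against 35.0% of all genes. NPY in BPS1 replicate 4 was 1.81 times the mean of the other 3 BPS1 libraries, CRH 1.72 times, VGF 1.62 times, GAL 1.58 times and SCG3 1.10 times. VIP in control replicate 1 was 1.57 times the mean of the other 3 control libraries, GAL 1.32 times and CHGA 1.28 times. Transcript GC content was highest in VGF (70.6%) and CHGA (62.4%) and lowest in VIP (37.0%). VGF in control replicate 1 was 0.92 times the mean of the other 3 control libraries. VIP in BPS1 replicate 4 was 1.51 times the mean of the other 3 BPS1 libraries. The part of GC content in these ratios was not tested.

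Without both libraries, a fit chosen after the values were seen, 6 members were called with BPS1 and 8 with BPS2. With BPS1, CHGB joined the lower calls and CRH was lost (limma adjusted p = 0.0853). VGF stayed higher (log2 fold change 1.20, limma adjusted p = 0.000475), as did SCG2 (1.02, limma adjusted p = 2.54e-05) and NPY (0.94, limma adjusted p = 0.000457). CHGA stayed lower (−0.52, limma adjusted p = 9.31e-06). With BPS2, NPY (0.78, limma adjusted p = 0.00238), GAL (0.46, limma adjusted p = 0.00425) and VIP (0.84, limma adjusted p = 0.0114) joined the higher calls. CHGA (−0.24, limma adjusted p = 0.00227) and CHGB (−0.19, limma adjusted p = 0.0361) became lower calls. In that fit 2772 genes in all were called with BPS1 and 1923 with BPS2, against 1760 and 247 in the fit of all libraries.

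**Figure D3:**
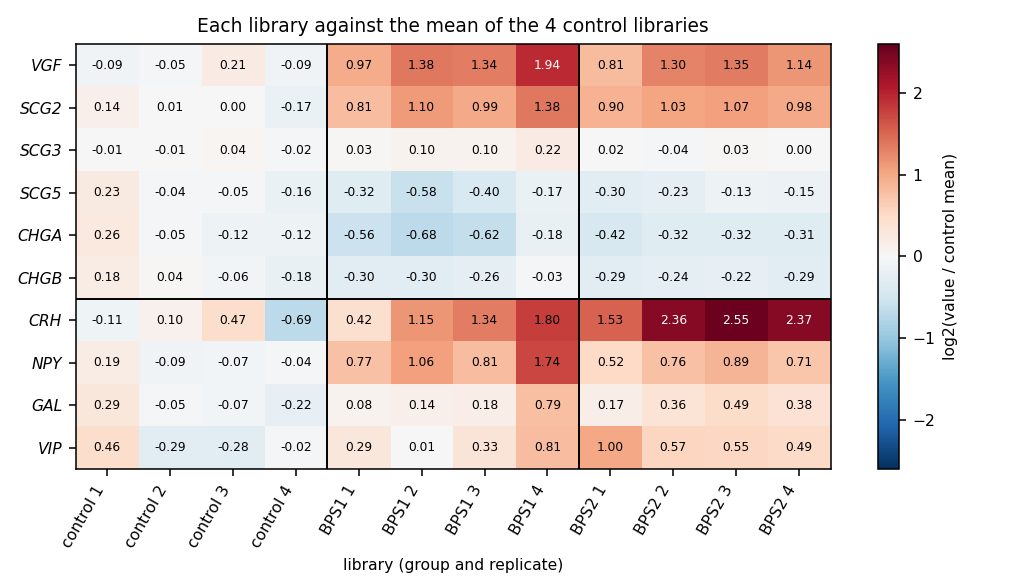
Log2 of each library's value over the mean of the 4 control libraries, by gene (rows, granins above the line and neuropeptides under it) and library (columns, by group and replicate). BPS1 replicate 4 has the highest value of its group in every row, and VGF, SCG2 and NPY are above 0.5 in all 8 treated libraries.

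For SCG2, VGF and CRH, the members with the smallest p against control, the genes nearest in pattern were found by the root mean square difference of centred log2 values over the 12 libraries, among 13974 genes with a mean of at least 50. SCG2 itself varied by 0.51 on this measure. Nearest to it were SAT1, a polyamine acetyltransferase, at 0.084, IGFBP3, an insulin-like growth factor binding protein, at 0.13, and GPR3, an orphan receptor, at 0.14. VGF varied by 0.66, and nearest to it were ID1, an inhibitor of helix-loop-helix factors, at 0.16, ETV4, an ETS factor, at 0.19, and SCG2 at 0.20. CRH varied by 1.00, and its nearest genes were much farther off: ACKR3 at 0.46, EGR1 at 0.55 and C8orf31 at 0.57. These distances are descriptions over libraries that share group and depth.

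Of the enzymes that cut and finish the precursors, 3 of 12 tested were called lower with BPS1 and 0 higher. Beside this, 4.32% of all genes tested were called lower and 4.29% higher with BPS1, and 0.386% and 0.821% with BPS2. Carboxypeptidase E (CPE), which trims basic residues after convertase cleavage, fell from 1304 ± 123 to 825 ± 15.2 (log2 fold change −0.66 ± 0.08, limma adjusted p = 0.000231). PAM, which amidates peptide ends, fell from 2558 ± 85.4 to 1902 ± 96.6 (−0.43 ± 0.07, limma adjusted p = 0.0016). PCSK5, a proprotein convertase, fell by 2.42 (limma adjusted p = 0.000622) and was the 1 enzyme called with BPS2, where it fell by 1.85 (limma adjusted p = 0.0143), a call lost without control replicate 3 or BPS2 replicate 3 (limma adjusted p of up to 0.0519). CPE and PAM differed between the oligonucleotides: with BPS2 CPE averaged 1199 and PAM 2623, which was 0.54 and 0.46 above BPS1 on the log2 scale (limma adjusted p = 0.00163 and 0.00158). The list's median log2 fold change was 0.06 with BPS1 and 0.03 with BPS2. CPD, another carboxypeptidase of the list, overlapped between groups with a log2 difference of 0.22 with BPS1 (limma adjusted p = 0.518).

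Of genes for building, loading and releasing dense-core vesicles, 9 of 32 tested were called lower and 2 higher with BPS1. With BPS2, 3 were called lower and 2 higher. The shares of all genes tested were 4.32% lower and 4.29% higher with BPS1, and 0.386% and 0.821% with BPS2. The list's medians were −0.23 and −0.07. The lower calls with BPS1 included HID1, which acts in vesicle biogenesis (1022 to 504, log2 fold change −1.01, limma adjusted p = 0.00178), and CADPS, which primes vesicles for release (1920 to 1012, −0.91, limma adjusted p = 0.00494). They also included ICA1, a binding partner of PICK1 at immature granules (−0.50, limma adjusted p = 0.00115), and SNAP25, a SNARE of the fusion machinery (−0.40, limma adjusted p = 0.00274). ICA1 (−0.47, limma adjusted p = 0.00706) and HID1 (−0.72, limma adjusted p = 0.0479) were lower with BPS2 as well. CYB561, the vesicle's electron carrier that regenerates ascorbate, rose with BPS1 (0.35, limma adjusted p = 0.00571) and with BPS2 (0.30, limma adjusted p = 0.0493). SYT11, a synaptotagmin, rose with BPS1 (0.22, limma adjusted p = 0.0256) and with BPS2 (0.25, limma adjusted p = 0.0453). Of 12 fits without 1 library, the call of HID1 with BPS2 held in 2, that of CYB561 in 2 and that of SYT11 in 1, with limma adjusted p of up to 0.161, 0.171 and 0.138, and that of SYT11 with BPS1 held in 7.

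Other peptide precursors were mostly low: of 64 listed, 25 passed the filter. With BPS1, EDN1, the precursor of endothelin 1, rose from 12.8 ± 3.48 to 39.4 ± 16.0 (log2 fold change 1.51 ± 0.27, limma adjusted p = 0.00409), and NPW, the neuropeptide W precursor, rose by 1.33 (limma adjusted p = 0.048). TAC3, the neurokinin B precursor, fell by 0.54 (limma adjusted p = 0.032). In all, 2 were called higher and 1 lower with BPS1, or 12% of the 25, beside 8.60% of all genes tested. The NPW call held in 1 of 12 fits without 1 library and the TAC3 call in 7, with limma adjusted p of up to 0.127 and 0.089. With BPS2 limma called 0 of the 25, beside 1.21% of all genes tested. At an unadjusted p under 0.05 there were 6, or 24% beside 11.4% of all genes tested. SST, the somatostatin precursor and the one with the largest mean value, averaged 1053 in control, 1425 with BPS1 and 1112 with BPS2, with overlapping libraries. The list's medians were 0.21 with BPS1 and 0.09 with BPS2. Of 14 receptors and binding partners of the 4 peptides, 7 were tested and limma called 0 in each comparison, also at an unadjusted p under 0.05. That p was reached by 22.5% of all genes tested with BPS1, 11.4% with BPS2 and 17.1% between the oligonucleotides. ADCYAP1R1, a receptor of the VIP family's ligand PACAP, averaged 2370 in control, 2004 with BPS1 and 2002 with BPS2.

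Of 26 transcription regulators known for these genes, 5 were called higher with BPS1 and 2 with BPS2, and 0 lower in either. Among all genes tested, 4.29% were called higher with BPS1 and 0.821% with BPS2, and 4.32% and 0.386% lower. The list's medians were 0.24 and 0.07. EGR1, an immediate early factor, rose from 66.3 ± 14.0 to 161 ± 32.5 with BPS1 (log2 fold change 1.27 ± 0.21, limma adjusted p = 0.00256) and to 155 ± 37.5 with BPS2 (1.21 ± 0.21, limma adjusted p = 0.0141). JUN, a subunit of AP-1, rose with BPS1 (0.43, limma adjusted p = 0.0142) and with BPS2 (0.64, limma adjusted p = 0.00561). FOS, its partner, averaged 93.5 ± 101 in control and 362 ± 114 with BPS1 (2.38 ± 0.54, limma adjusted p = 0.0163), with overlapping libraries. CREM, a cyclic AMP-responsive modulator, averaged 587 in control, 585 with BPS1 and 789 with BPS2. Its difference between the oligonucleotides, 0.44 ± 0.11, was called (limma adjusted p = 0.0435), and that between BPS2 and control was not (limma adjusted p = 0.107). Of 12 fits without 1 library, the CREM call held in 2 and those of FOS with BPS1 and EGR1 with BPS2 in 10 each, with limma adjusted p of up to 0.134, 0.052 and 0.0511.

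**Figure D4:**
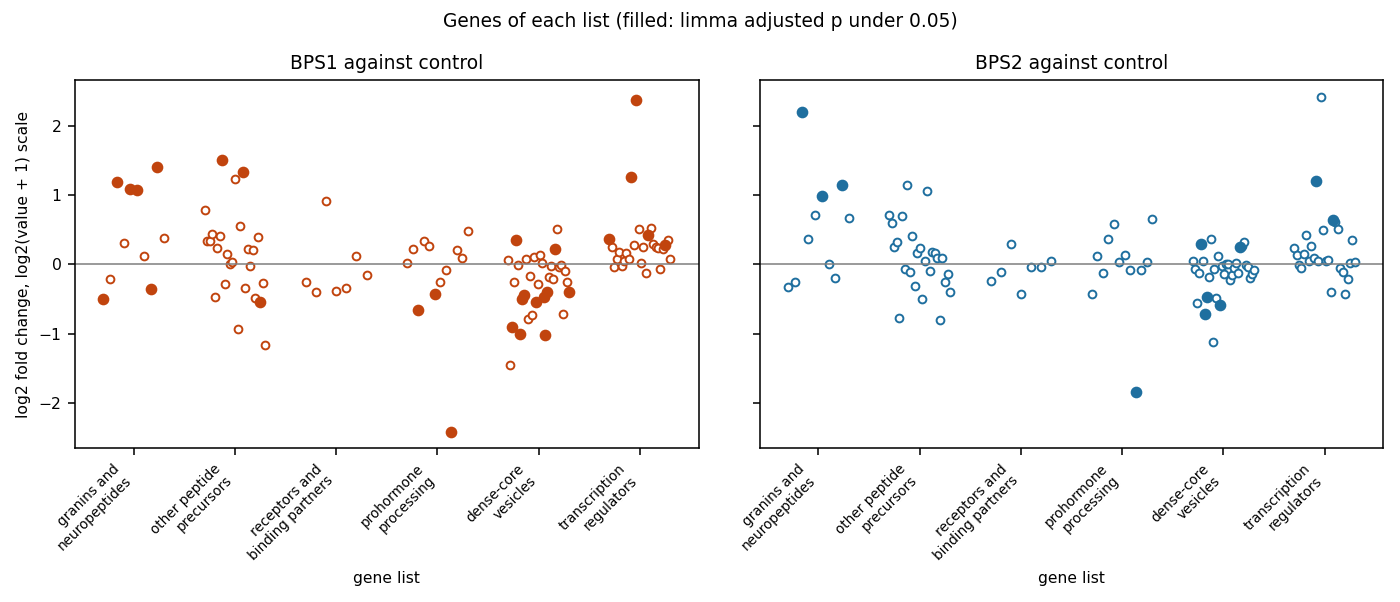
Log2 fold change against control (vertical axis, log2(value + 1) scale) of each tested gene in 6 gene lists (horizontal axis), for BPS1 on the left and BPS2 on the right. Filled points have a limma adjusted p under 0.05. The dense-core vesicle list has 9 filled points under 0 and 2 above with BPS1, and 3 under and 2 above with BPS2. Of all genes tested, 8.60% were called with BPS1 and 1.21% with BPS2.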

How the data were processed

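RNA-seq was run on 12 KELLY libraries. Per the submitters' processing notes, the authors used GRCh38, DESeq2, Salmon 0.8.2 and FastQC 0.11.7. The sources used here give neither the annotation release nor the DESeq2 version. Per the labels' protocols, libraries were strand-specific total RNA after ribosomal RNA depletion, read as single 100-base reads. The deposited signal is a normalized count per gene and library, so depth is seen only as library totals of 29.6 to 33.3 M, which by the value of 1 read come to an estimated 29.1 to 31.8 M reads. Most genes with several transcripts were not in whole reads, so counts were not modelled.

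Values were taken as log2(value + 1) and tested with limma 3.58.1 in R 4.3.3 (linear fits moderated by eBayes, trend on) over 20454 genes with at least 10 in at least 4 libraries, with group as the only term. P-values are two-sided, adjusted by Benjamini-Hochberg over all genes tested. The fit was tested on simulated data in which each gene's departures from its group means were drawn separately. Deviations shared by the genes of a library were thus absent, and that test cannot speak to them. Of 55771 identifiers, 53365 were matched in GENCODE release 29, which gave positions and lengths, and RefSeq (GRCh38.p14) gave promoter windows. The members and gene lists were chosen with earlier results of these data known. Beside the members, the text names up to 5 called genes and the 2 largest means per list and, for the 3 members with the smallest p, the 3 genes nearest in pattern. 1 gene that this rule takes is not reported here. Alternatives were other pseudocounts, filters, scalings and fits, a replicate block, leaving out each library and, added after the data were seen, leaving out both libraries that stood apart or removing a GC trend.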

Additional observations from a re-analysis of the deposited data

Results flagged for a closer look

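In a group of 4, a library was marked when its gap to the nearest other library passed Dixon's 95% critical share of the group's range. Chance alone marks about 1 in 20 groups, and 16 of 123 groups checked were marked, 7 of them among the members' 30. The ratio was 0.854 for VGF in control replicate 3 (225 against 183 to 189), 0.840 for SCG3 in the same library (5337 against 5103 to 5140.4) and 0.843 for NPY in control replicate 1 (123 against 101 to 104). In BPS1 replicate 4 it was 0.865 for CHGB and 0.889 for GAL, both high. In BPS2 replicate 1 it was 0.917 for CHGA, which was low there, and 0.875 for VIP, which was high.

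Among the other genes, BPS1 replicate 4 was marked for EDN1 (0.921), TAC3 (0.932), SST (0.855), CADPS (0.937), JUN (0.833) and ID1 (0.835). The remaining marks were EGR1 in BPS1 replicate 1 (0.976), FOS in control replicate 2 (0.911) and HDAC2 in control replicate 4 (0.963).

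The effects of the 2 oligonucleotides differed, by the limma test of BPS2 against BPS1, for NEAT1 (log2 difference 1.10), CPE (0.54), PAM (0.46) and CREM (0.44). Each was higher with BPS2 than with BPS1, and NEAT1 was under control with both.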

How the results depend on the processing

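The calls of VGF, SCG2, NPY and CHGA with BPS1 held in all 12 fits without 1 library (highest limma adjusted p of 0.00232, 0.000571, 0.0123 and 0.0389), and so did those of VGF, SCG2 and CRH with BPS2 (0.0345, 0.00711 and 0.0216). Fitting only the 2 groups compared left 3 members called with BPS1, against 4 to 6 without 1 library, with CHGA at 0.0533 and CRH at 0.0707. Called members with BPS2 numbered 8 with library weights, 3 to 5 without 1 library, 8 without both libraries that stood apart and 5 with the GC trend removed. Between the oligonucleotides they numbered 3 with library weights, 0 to 2 without 1 library and 2 without both libraries.

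Called genes of all tested went from 1760 with BPS1 to 3382 with library weights, 907 with only the 2 groups, 1103 to 2359 without 1 library and 2772 without both libraries. With BPS2 they went from 247 to 1296 with library weights, 113 (without BPS2 replicate 3) to 535 (without BPS1 replicate 4) without 1 library and 1923 without both. Between the oligonucleotides they went from 803 to 3626 with library weights, 471 (without BPS1 replicate 3) to 1756 (without BPS1 replicate 4) without 1 library and 3498 without both. With the GC trend removed, 2118 genes were called with BPS1, 359 with BPS2 and 1015 between the oligonucleotides. Of 12 same-numbered pairs of libraries, 1 had a correlation of deviations from the group mean over 0.1 (−0.272 to 0.103). Of 36 differently numbered pairs, 9 did (−0.212 to 0.424). The labels do not say whether the same number marks a shared culture or day, and these correlations do not settle it. With the replicate block, 5 members were called with BPS1, without SCG5 (limma adjusted p = 0.104), 3 with BPS2 and 0 between oligonucleotides, and of all genes 1067, 118 and 447.

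Some small differences changed sign, and none of them was called under the settings named next. SCG3 with BPS2 was −0.0028 with median-of-ratios scaling, −0.014 with quantile scaling, −0.0052 with library weights, −0.0015, −0.00097 and −0.0045 without control replicates 1, 2 and 4, −0.0021 and −0.0072 without BPS2 replicates 1 and 3, and −0.0015 without both libraries. Without 1 library the range reached 0.017. BPS2 against BPS1 was 0.012 for SCG2 and 0.022 for CHGB with library weights, and 0.027 and 0.031 without both. Without 1 library it ran from −0.16 to 0.027 for SCG2 and from −0.062 to 0.031 for CHGB, the highest without BPS1 replicate 4. For GAL it was −0.022 and −0.0029 without BPS1 replicates 1 and 2 and up to 0.21 without replicate 4. The cause was not tested. A DESeq2 test of read counts was not run, since whole reads could not be recovered for the table.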
